A study of Mus musculus with 4 samples.

Results

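The Wee2 and Pls1 nuclei of the mouse testis were examined by single-nucleus RNA-seq (snRNA-seq) in 4 libraries. They were chosen by their RNA. A nucleus had to hold at least 1 UMI (unique molecular identifier, a tag that marks 1 captured RNA molecule) of at least 4 of 10 genes, namely Pls1, Wee2, Lef1, Syt16, Scai, Neb, Epha7, Grin3a, Gm3455 and Gm15489. It also had to hold fewer than 3 of 8 genes of a second list, namely Cadm2, Spef2, Gm20125, Gm44151, 4930432L08Rik, Fgf7, Cacng8 and Marchf4. Of 36152 barcodes with at least 1000 UMIs and 500 to 5000 genes, 559 met this rule, or 1.55%. Because these genes picked the nuclei, and any other gene was measured in the same nuclei, levels against other nuclei are given as a description with no test.

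Whole testes of 8-week-old male mice were used, with 2 libraries from WT mice and 2 from Dhx37-/- mice, called biological replicates 1 and 2 of each genotype by the labels. The Dhx37-/- mice, named CKO in the sample titles, were of the genotype Dhx37 flox/flox with an AMH-Cre transgene, so that Dhx37 was disrupted where Cre acted. The Amh promoter drives Cre in Sertoli cells from the fetal testis on, and the germ line is not targeted. The sources used here do not give the number of mice per library or further alleles of the WT mice. Each library held 51797891 to 75611263 UMIs over all barcodes, and 8057 to 9844 of its barcodes passed the limits on UMIs and genes.

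Spermatogonia enter meiosis as primary spermatocytes, which pass through leptotene, zygotene, pachytene and diplotene before the first meiotic division. During this prophase the homologous chromosomes break, pair along the synaptonemal complex and recombine, while the X and Y are kept silent in the sex body. A primary spermatocyte carries an X and a Y, whereas each secondary spermatocyte and each spermatid formed by the divisions carries one or the other. Wee2 encodes a kinase that phosphorylates CDK1 and holds it inactive, and is known mainly for keeping oocytes arrested. Pls1 encodes plastin 1, which bundles actin filaments. The transcription factors MYBL1 (A-MYB) and TCFL5 drive many genes at pachytene.

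The promoters of the 2 genes that give the nuclei their name are shown as the sequence context of the rule, as 150 bases upstream of the start in the RefSeq promoter table (GRCm38.p6), read 5′ to 3′ on the gene's strand. Capitals mark a match to TAACNG, the core of a MYB site, searched on both strands.
Wee2 (chr6:40442713-40442862, plus strand): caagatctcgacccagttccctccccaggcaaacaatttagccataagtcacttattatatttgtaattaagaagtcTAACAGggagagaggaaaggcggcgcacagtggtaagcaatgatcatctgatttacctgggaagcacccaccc
Pls1 (chr9:95845280-95845429, minus strand): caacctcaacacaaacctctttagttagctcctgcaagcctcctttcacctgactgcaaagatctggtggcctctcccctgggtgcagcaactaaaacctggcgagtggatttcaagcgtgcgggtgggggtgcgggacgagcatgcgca
Within 250 bases upstream, 19.8% of all 32851 promoters of the table held TAACNG. Of the 10 genes of the first list, 6 had a promoter in the table, and Wee2 and Lef1 held the motif. A match is a run of letters in this window and not a measured binding site.

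Pls1 was measured at 357, 332, 244 and 172 CPM (UMIs scaled to the same library total) in WT 1, WT 2, Dhx37-/- 1 and Dhx37-/- 2. The remaining nuclei fell into 3 kinds. Of these, 3374 met the mirror image of the rule (at least 4 genes of the second list and fewer than 3 of the first), 1308 held both lists, with too many genes of the second list to be gated, and 30911 belonged to no such kind and are called nuclei of neither gate. Pls1 was at 5.0 to 7.3 CPM in the nuclei of neither gate and at 137 to 228 CPM in those with both lists. The Dhx37-/- libraries were both below the WT libraries in the gated nuclei.
Wee2 was at 81.6, 143, 105 and 53.8 CPM in the same order, and at 1.5 to 3.0 CPM in the nuclei of neither gate. In the nuclei with both lists Wee2 was at 81.4, 166, 155 and 127 CPM, above the gated nuclei in 3 libraries. The highest and the lowest library of Wee2 were WT 2 and Dhx37-/- 2, with the other two between them. Lef1, a transcription factor that acts with beta-catenin in Wnt signalling, was at 381, 247, 292 and 268 CPM, against 7.0 to 17.0 CPM in the nuclei of neither gate and 111 to 343 CPM in those with both lists.

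Among the other genes of the first list, Gm15489 varied least and Syt16, Grin3a and Gm3455 most between libraries. Syt16, of the synaptotagmin family of membrane trafficking proteins, was at 289, 770, 383 and 191 CPM. Grin3a, a subunit of NMDA glutamate receptors, was at 157, 385, 197 and 111 CPM, and the predicted gene Gm3455 at 212, 599, 363 and 151 CPM. WT 2 was the highest and Dhx37-/- 2 the lowest library for all 3 of these genes.
Scai, a cofactor of transcription that binds the SRF partner MRTF, ranged from 510 to 1064 CPM. Epha7, an ephrin receptor, ranged from 83.5 to 159 CPM, and the predicted gene Gm15489 from 131 to 206 CPM. Neb, which encodes the giant thin-filament protein nebulin of skeletal muscle, ranged from 208 to 333 CPM, with its highest level in Dhx37-/- 2. In every library Neb was higher in the nuclei with both lists, at 344, 734, 768 and 808 CPM. The Dhx37-/- libraries also held more Scai (719 and 580 CPM), Epha7 (171 and 287 CPM) and Gm15489 (216 and 197 CPM) there. The WT libraries held less of these genes there than in the gated nuclei. Free RNA, taken from barcodes with at most 100 UMIs, held Pls1 at 9.0 to 13.2 CPM and Wee2 at 5.7 to 13.2 CPM.

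**Figure D1:**
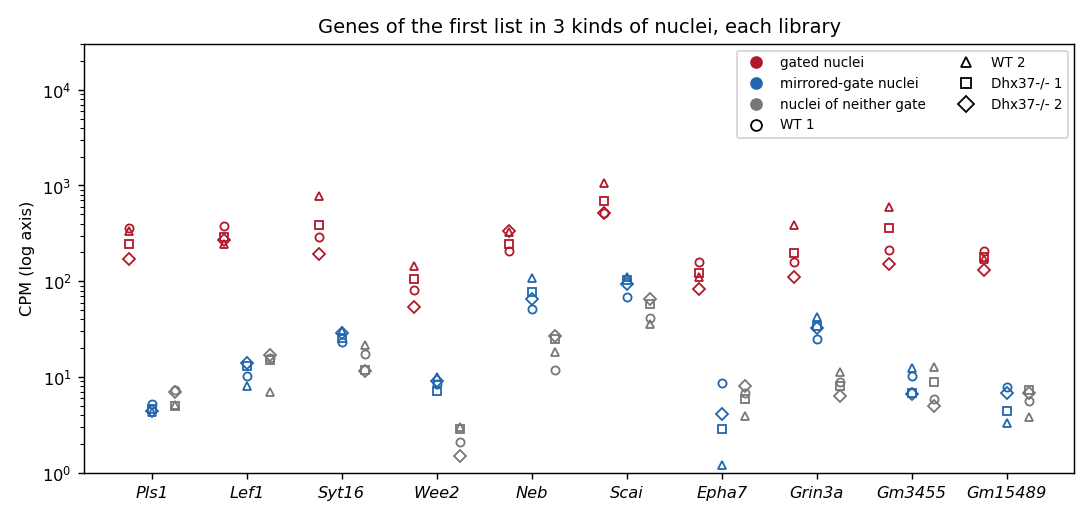
CPM of the 10 genes of the first list (log axis) in gated nuclei, in nuclei of the mirrored gate and in nuclei of neither gate, with 1 point per library. All 10 genes lie higher in the gated nuclei of each library than in the other kinds plotted, as the rule favours (the 1308 nuclei with both lists are not plotted), and Pls1 spans 172 to 357 CPM among the gated nuclei.

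The rule's threshold of 4 genes divided a continuous range. Exactly 4 of the 10 genes were found in 200 of the 559 nuclei, 5 genes in 124 and 6 or more in 235, with all 10 in 8 nuclei. A further 346 nuclei held 3 genes and lay just outside. The nuclei just inside had 1611 to 2170 summed CPM of 20 marker genes of late pachytene, diplotene and the first division (MI), and those just outside had 1296 to 1538 CPM. The summed Sertoli markers were at 243 to 962 CPM just inside and at 885 to 1503 CPM just outside. Nuclei with only 4 genes made up 39.6% and 19.7% of the gated nuclei in WT 1 and WT 2, and 29.6% and 50.6% in Dhx37-/- 1 and Dhx37-/- 2. Dhx37-/- 2 also had the highest median depth of gated nuclei, 5201 UMIs, against 3382, 2915 and 4306 UMIs in the others.

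Outside the 2 lists, the genes with the largest ratio of gated to other nuclei (pseudocount 5 CPM) were led by Gm15559, a predicted gene, with a ratio of 11.6, and Kif18a, a kinesin that damps chromosome movements on the spindle, with a ratio of 10.8. Kif18a was at 202, 312, 220 and 131 CPM in the gated nuclei and at 12.7 to 18.5 CPM in all other nuclei. Nfe2l3, a transcription factor of the CNC bZIP family, was at 60.2, 206, 135 and 50.3 CPM against 4.3 to 7.4 CPM. The nuclei with both lists came nearest, with Gm15559 at 85.8, 49.2, 126 and 146 CPM against 148, 214, 258 and 133 CPM in the gated nuclei, so that they were the higher kind in Dhx37-/- 2. Kif18a was at 61.3 to 96.3 CPM in them and Nfe2l3 at 23.1 to 54.9 CPM.
The remaining 9 of the 12 leading genes had ratios of 8.64 to 10.3. They were Olfm2, an olfactomedin, Slc35g2, of a family of membrane transporters, Necab1, a calcium-binding protein known from neurons, Bloc1s6os, which lies opposite Bloc1s6 and may share reads with it, BC028528, and the predicted genes Gm19265, Gm11491, Gm11944 and Gm10550. Of 3745 genes at 50 CPM or more in the gated nuclei of every library and with a known chromosome, 18 (0.48%) lay on the X. Of the 100 genes with the largest ratios 0 did, which is near that share. The median ratio was 2.25 for the 18 X-linked genes and 1.79 for the autosomal genes.

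The stage of these nuclei was placed with lists of known meiotic genes. Many genes of any kind were higher in the gated nuclei. Of 13397 genes outside the rule with a mean of 10 CPM or more over gated and all other nuclei, 43.7% were higher in the gated nuclei in every library and 34.4% lower, with a median ratio of 1.20. Among autosomal genes at 50 CPM or more in the gated nuclei of every library, a limit that favours genes high in them, the median ratio was 1.79. The lists are read beside these values, and no test was made of their difference. Of the 6 stage lists, that of late pachytene, diplotene and MI had the largest median ratio. Of its 20 genes, 19 were higher in the gated nuclei than in all other nuclei in every library, with a median ratio of 3.02. Its summed level was 2288, 2415, 2802 and 1904 CPM, against 1087 to 1371 CPM in the mirrored-gate nuclei and 607 to 783 CPM in nuclei of neither gate. The nuclei with both lists were close to the gated nuclei, at 1757, 1567, 2240 and 2241 CPM, and above them in Dhx37-/- 2. Cenpe, the centromere kinesin that carries chromosomes to the spindle equator, was at 272, 189, 197 and 166 CPM. In nuclei of neither gate Cenpe was at 16.2 to 29.7 CPM.
Knl1, the kinetochore scaffold, was at 488, 413, 409 and 302 CPM against 66.9 to 90.7 CPM, and the checkpoint kinase Ttk at 99.1, 55.3, 129 and 75.5 CPM against 7.7 to 14.8 CPM. Ccnb2, a cyclin that activates CDK1 at division, was at 154, 262, 332 and 188 CPM against 49.4 to 63.4 CPM. In the nuclei with both lists Knl1 was at 366 to 477 CPM, Ttk at 17.2 to 64.2 CPM and Ccnb2 at 113 to 202 CPM, which overlapped with the gated nuclei for all 3 genes. Ube2c, the ubiquitin-conjugating enzyme of the anaphase-promoting complex, was the member that did not follow them, at 34.3 to 44.7 CPM against 45.3 to 107 CPM.

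The lists of earlier prophase had smaller ratios. Of 18 leptotene and zygotene genes, 11 (61.1%) were higher in the gated nuclei than in all others in every library and 2 were lower, with a median ratio of 1.89. At a mean of 10 CPM or more, the limit used above for all genes, it was 68.8% and a median ratio of 2.11. Hormad1, which coats unsynapsed chromosome axes, was at 336, 425, 522 and 398 CPM against 39.0 to 80.3 CPM in nuclei of neither gate. Gm960 was at 150, 70.4, 53.9 and 72.1 CPM against 3.2 to 11.9 CPM. Prdm9, the histone methyltransferase that places recombination hotspots, was at 35.0, 85.5, 44.0 and 20.6 CPM against 2.3 to 6.6 CPM. Thus RNA of a gene known for the onset of prophase was found in the same pool of nuclei as RNA of the division genes. These values are sums over the gated nuclei of a library, and whether the same nuclei held both was not tested. The nuclei with both lists held Prdm9 at 5.5 to 26.2 CPM.
Spo11, whose protein makes the meiotic DNA breaks, was at 48.6 to 70.9 CPM against 24 to 29 CPM, and Dmc1, the meiotic strand-exchange protein, at 60.6 to 108 CPM against 55.6 to 93.0 CPM, so that Dmc1 overlapped with the nuclei of neither gate.

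Of 18 pachytene genes, 12 (66.7%) were higher in the gated nuclei in every library and 4 were lower, with a median ratio of 1.59. At a mean of 10 CPM or more it was 70.6% and 1.69. Mybl1 was at 293, 194, 201 and 138 CPM against 10.5 to 21.0 CPM in nuclei of neither gate and 16.2 to 25 CPM in the mirrored-gate nuclei. Tdrd5, a component of germ granules, was at 141 to 179 CPM against 8.9 to 21.1 CPM. Tcfl5, by contrast, was at 124 to 173 CPM and overlapped with the nuclei of neither gate, at 129 to 188 CPM. Calm4 was not detected in any of the 2491284 UMIs of the gated nuclei, which allows up to 3 UMIs in all of them.

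Wider lists were described in the same way, first over all measured genes. At a mean of 10 CPM or more, 60.8% of synapsis and 70.8% of sex body genes were higher. For G2 and piRNA genes it was 84.2% and 67.6%, beside 43.7% of all genes. Of 55 measured genes of synapsis and recombination, 31 (56.4%) were higher in the gated nuclei in every library and 6 lower, with a median ratio of 1.69. Mlh3, a crossover protein, was at 221, 219, 189 and 177 CPM against 8.4 to 19.7 CPM, and Sycp1, the transverse filament of the synaptonemal complex, at 157, 111, 279 and 398 CPM against 210 to 298 CPM. Among 30 genes of the sex body, 20 (66.7%) were higher and 4 lower, with a median ratio of 2.01. Atr, the kinase that silences the unsynapsed X and Y, was at 579, 609, 650 and 556 CPM against 50.7 to 101 CPM, and Rnf8, a ubiquitin ligase of the same pathway, at 103 to 133 CPM against 6.1 to 15.6 CPM. The Atr level varied little between the 4 libraries.
Of 48 genes of G2 and the meiotic divisions outside the first list, 35 (72.9%) were higher and 4 lower, with a median ratio of 2.44. Wee1, the somatic relative of Wee2, was at 64.1, 78.0, 92.2 and 81.2 CPM against 10.3 to 19.6 CPM. Of 37 genes of the piRNA pathway, which silences transposons in the germ line, 26 (70.3%) were higher and 4 lower, with a median ratio of 1.94. Exd1, a piRNA-pathway protein, was at 216 to 264 CPM against 9.0 to 21.3 CPM.

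Most spermatid genes were lower. Of 15 measured round spermatid genes, 13 were lower in the gated nuclei than in all other nuclei in every library and 1 was higher, with a median ratio of 0.38. Acrv1, a protein of the acrosome, was at 85.5, 65.4, 76.6 and 73.2 CPM against 327 to 523 CPM in nuclei of neither gate. Catsper3, a subunit of the sperm calcium channel, was at 9.7 to 21.7 CPM against 118 to 157 CPM, whereas Spata16, of acrosome formation, was the member that was higher, at 451 to 592 CPM against 270 to 500 CPM in nuclei of neither gate. All 13 elongating spermatid genes were lower in the gated nuclei, at a summed 5590 to 9389 CPM. In the mirrored-gate nuclei the same genes summed to 5154 to 9340 CPM, so their low level was shared with that kind, and in free RNA to 22799 to 52254 CPM. The 12 spermatogonia genes summed to 161, 72.9, 129 and 320 CPM, with Dhx37-/- 2 above the 189 to 229 CPM of the nuclei of neither gate. Of these 12 genes, 5 were lower and 2 higher than in all other nuclei in every library.

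**Figure D2:**
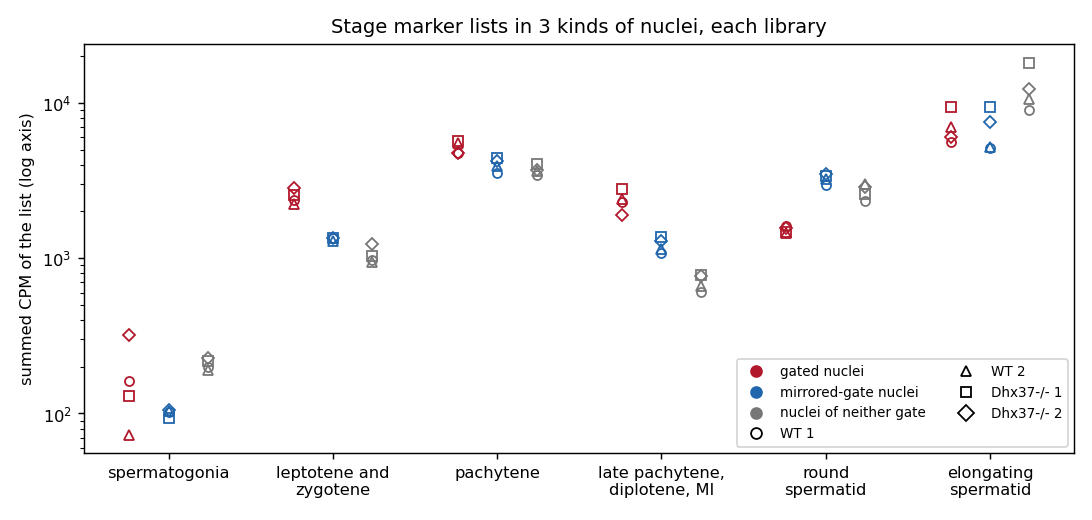
Summed CPM of 6 lists of stage markers (log axis) in gated nuclei, mirrored-gate nuclei and nuclei of neither gate, with 1 point per library. Among the 3 kinds plotted, the gated nuclei are the highest for the list of late pachytene, diplotene and MI (1904 to 2802 CPM) and the lowest for round spermatids (1456 to 1620 CPM). The nuclei with both lists, not plotted, reach 2241 CPM for the late list.

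The ratio of late to early prophase genes (log2 of the summed pachytene and late lists over the leptotene and zygotene list) was 1.57 and 1.83 in WT, 1.73 in Dhx37-/- 1 and 1.23 in Dhx37-/- 2. The means were 1.70 ± 0.19 (SD, n = 2) in WT and 1.48 ± 0.35 (SD, n = 2) in Dhx37-/- libraries, and the groups overlapped (exact two-sided permutation test, p = 0.67, where 0.33 is the smallest p that 2 against 2 libraries allow). Dhx37-/- 2 was at 0.96 in its nuclei with exactly 4 genes and at 1.12 in those with 5 genes, the lowest library in both, and at 1.84 in those with 6 or more. The order of the means turned in the 4 largest clusters, with 1.60 and 1.83 in WT against 1.97 and 1.96 in Dhx37-/- libraries, and also with at least 6 genes, with the gate after thinning and without Dhx37-/- 2. The mirrored-gate nuclei were at 1.79 to 2.10, those with both lists at 1.70 to 1.91 and those of neither gate at 1.84 to 2.23. Each of these kinds was above the gated nuclei of the same library, so the ratio alone does not place the stage.

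The label of these nuclei as spermatocytes was checked with the sex chromosomes, which the rule did not use. X-linked shares per nucleus lay mostly in a low or a high range, with some nuclei between. The nuclei were divided into a low and a high group. For counting, a limit of 0.5% of a nucleus's UMIs was chosen after the values were seen, and 26 of the 559 nuclei lay within 0.1 percentage points of it. Below it were 64 of 139 gated nuclei in WT 1 (46.0%), 64 of 122 in WT 2 (52.5%), 57 of 142 in Dhx37-/- 1 (40.1%) and 74 of 156 in Dhx37-/- 2 (47.4%). Both groups were thus present in each library.
Among the 444 nuclei of the 4 largest clusters (described further on), the X-linked share was 0.215%, 0.187%, 0.240% and 0.215% in the low group. It was 1.31%, 1.27%, 1.15% and 1.26% in the high group. Free RNA held 1.07% to 1.36% X-linked UMIs, several-fold above the low group.

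Y-linked RNA lay on the other side. In the same 444 nuclei the Y-linked share was 0.0482%, 0.0382%, 0.0308% and 0.0490% in the X-low group, and 0.0115%, 0.0142%, 0.0095% and 0.0174% in the X-high group. A Y-linked UMI was found in 61.3% of the 212 X-low nuclei and in 34.1% of the 232 X-high nuclei, although median depth was as high or higher in the X-high group of 3 libraries (WT 1 was the exception, with 3418 UMIs in the X-low and 3113 UMIs in the X-high nuclei). Free RNA held 0.069% to 0.080% Y-linked UMIs.
Eif2s3y, a translation factor encoded on the Y, was at 81.9, 124, 101 and 128 CPM in X-low nuclei and at 18.4, 12.9, 18.9 and 14.1 CPM in X-high nuclei. Uty, a histone demethylase homologue, was at 38.5 to 95.5 CPM, or 45 UMIs, against 0 to 6.4 CPM, or 1 UMI. Usp9y, a Y-linked deubiquitinase, was at 34.8 to 91.0 CPM against 9.5 to 28.2 CPM. For its X-linked relative Usp9x the order turned round, with 14.4 to 33.6 CPM in X-low and 354 to 445 CPM in X-high nuclei.
Tent5d, an X-linked poly(A) polymerase of the germ line, was at 5.0 to 9.6 CPM in X-low and 383 to 587 CPM in X-high nuclei, and Phf6, a chromatin protein, at 4.5 to 29.8 CPM against 277 to 537 CPM.

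The split concerned the sex chromosomes and hardly any other gene. Among genes at 50 CPM or more, 24 of 26 X-linked genes lay past 2-fold between the groups, with a median log2 difference of 3.94, as the split itself fixes. Of 5039 autosomal genes, which the split did not use, 6 (0.12%) lay past 2-fold, with a median log2 difference of -0.02. The late pachytene, diplotene and MI list summed to 2488 to 3477 CPM in X-low and 2462 to 3261 CPM in X-high nuclei, and the round spermatid list to 1411 to 1760 CPM against 1509 to 1802 CPM. So the stage markers did not part the 2 groups.
The order of the Y-linked shares held in all 4 libraries of the 4 largest clusters, but not over all 559 gated nuclei. There the X-low and X-high shares were 0.0512% and 0.0315% in WT 1 and 0.0382% and 0.0173% in WT 2, against 0.0277% and 0.0330% in Dhx37-/- 1 and 0.0291% and 0.0650% in Dhx37-/- 2. Cluster 1 was a further exception, since a Y-linked UMI was found in 50.7% of its 138 X-low nuclei and in 10 of its 16 X-high nuclei.
An X-low group with more Y-linked RNA beside an X-high group with less goes against the label where it means primary spermatocytes alone, each of which carries both chromosomes. Their DNA content was not measured, and they are called here by the genes of the rule. In the mirrored-gate nuclei, 47.8% were X-low, and a Y-linked UMI was found in 99.4% of X-low and 64.6% of X-high nuclei.

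**Figure D3:**
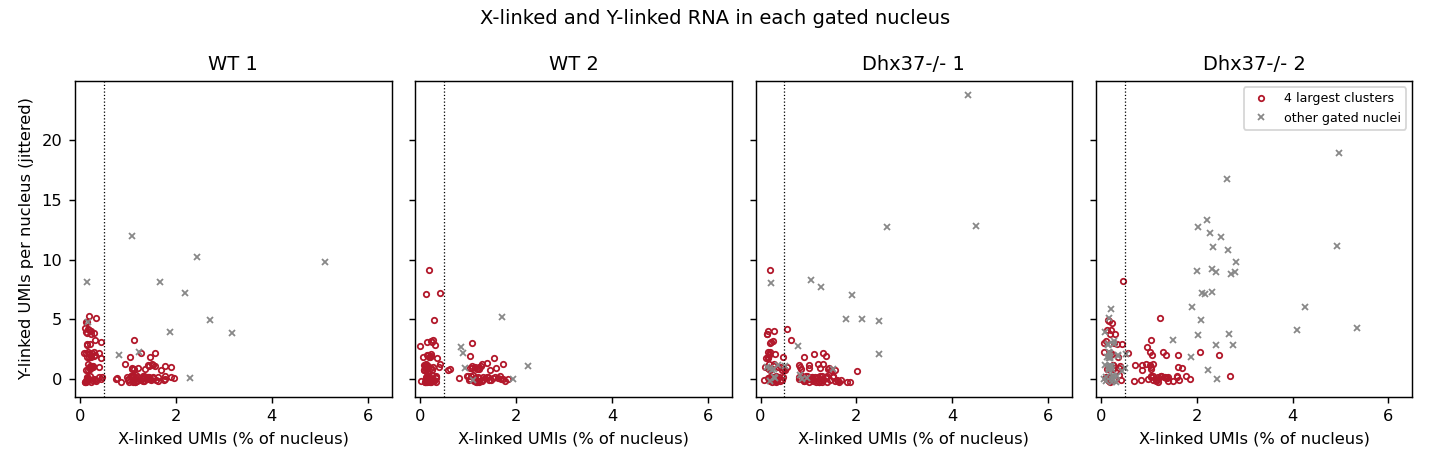
X-linked UMIs as a percentage of a nucleus's UMIs (horizontal) against its number of Y-linked UMIs (vertical, jittered), with 1 panel per library and 1 mark per gated nucleus; the dotted line is at 0.5%. In the 4 largest clusters the 212 nuclei left of the line carry most Y-linked UMIs (320, against 114 in the 232 nuclei right of it).

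Over all gated nuclei together, the X-linked share was 0.958% in WT 1 and 0.715% in WT 2, and 1.04% in Dhx37-/- 1 and 1.11% in Dhx37-/- 2. The means were 0.836% ± 0.171 (SD, n = 2) and 1.07% ± 0.047 (SD, n = 2), and the groups did not overlap (exact two-sided permutation test, p = 0.33, the smallest p possible here). In the 4 largest clusters the shares were 0.760% and 0.656% against 0.791% and 0.827%. The difference of 0.236 percentage points turned to -0.082 with the gate after thinning and to -0.135 with no limit on the second list, and was 0.115 without WT 2.

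The gated nuclei were clustered with the genes of both lists left out, which gave 8 clusters. They are named by number and leading genes, and comparisons among them carry no test. Clusters 1 to 4 held 444 nuclei, or 126, 115, 116 and 87 in the 4 libraries. Cluster 1 (154 nuclei) had weak leading genes such as Syt10, a synaptotagmin, and 89.6% of its nuclei were X-low. Cluster 2 (113 nuclei) was led by Iqca and Hao1, a peroxisomal oxidase, with 61.1% of nuclei X-low. In cluster 3 (103 nuclei), led by Cngb3, a channel subunit known from cone photoreceptors, 96.1% of nuclei were X-high. Cluster 4 (74 nuclei) was 98.6% X-high, and 7 of its 10 leading genes were X-linked, among them Tenm1, Suv39h1, Phf6 and Tent5d. Clusters 3 and 4 were spread unevenly, with 51 of 103 nuclei of cluster 3 from WT 1 and 1 of 74 nuclei of cluster 4.
The late list summed to 2080 to 3232 CPM in clusters 1 to 4 and to 166 to 1571 CPM in clusters 5 to 8. Across libraries, Mybl1 was at 199 to 332 CPM in the first 4 clusters and at 66.5 to 146 CPM in the other 4. Pls1 was at 309 to 375 CPM against 50.7 to 256 CPM, whereas Neb was higher in the other 4 clusters of both Dhx37-/- libraries (282 against 229 CPM and 367 against 285 CPM).

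Clusters 5 to 8 held 115 nuclei, with 13 from WT 1, 7 from WT 2, 26 from Dhx37-/- 1 and 69 from Dhx37-/- 2. Cluster 5 (48 nuclei, 27 of them from Dhx37-/- 2) was led by Auts2, Bnc2, Rims1 and Zbtb16, a transcription factor of spermatogonial stem cells. In it the spermatogonia list summed to 1246 CPM and the Leydig list to 1109 CPM, and 37 of its 48 nuclei held only 4 genes of the first list. Cluster 6 (43 nuclei) came from the Dhx37-/- libraries alone, with 7 and 36 nuclei, and 34 of its nuclei held 4 genes. It was led by Zfp820, a zinc-finger gene, Stox1 and Kcnk10. Its median depth was 8153 UMIs and its leptotene and zygotene list summed to 4416 CPM, the highest of the 8 clusters. Only 0.205% of its UMIs were X-linked, in 41 of 43 nuclei below the limit, and 29 of these 41 nuclei held a Y-linked UMI. Their Y-linked share was 0.0076% in Dhx37-/- 1 and 0.0175% in Dhx37-/- 2. The X-low group of the 4 largest clusters was at 0.0308% and 0.0490% in these libraries, so Y-linked RNA was low in cluster 6 as well.
Scrublet called all 15 nuclei of cluster 7 doublets, of 33 calls among the 559 nuclei. Of the other 18 calls, 13 lay in cluster 3, or 12.6% of its nuclei. Cluster 8 (9 nuclei, 1 of them from WT) was led by Mageb18, Gpm6b, L3mbtl4 and Diaph2, with Wt1, a Sertoli transcription factor, among its 10 leading genes. Its Sertoli list summed to 3894 CPM, and 4.93% of its UMIs were X-linked. The clusters named here were set apart after their genes had been seen.

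**Figure D4:**
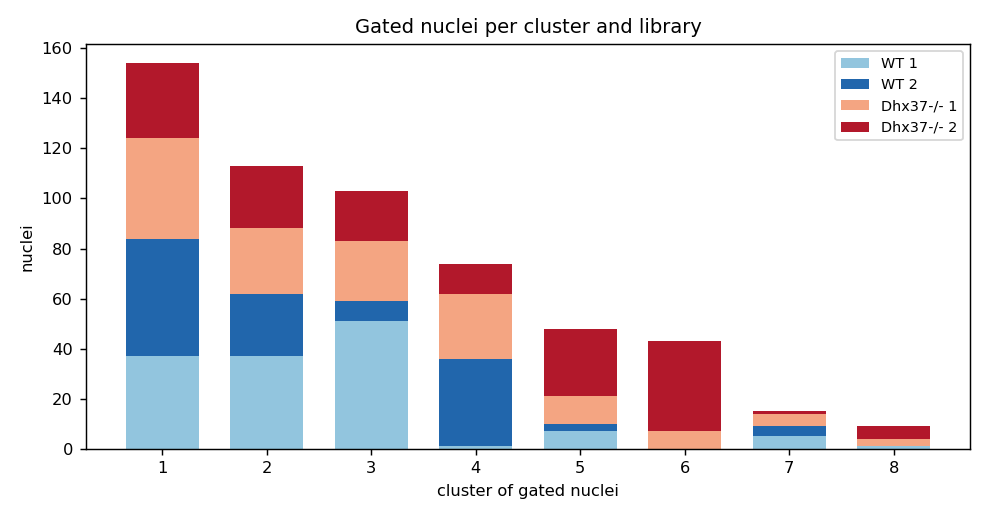
Number of gated nuclei (vertical) in each of 8 clusters (horizontal), stacked by library. Clusters 1 to 4 hold 444 nuclei from all 4 libraries, while cluster 6 has 0 nuclei from WT and 36 of 43 from Dhx37-/- 2.

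The abundance of the gated nuclei was then compared between genotypes. Their share was 1.43% (139 of 9742; 95% Wilson interval 1.21 to 1.68%) in WT 1 and 1.51% (122 of 8057; 1.27 to 1.81%) in WT 2. It was 1.67% (142 of 8509; 1.42 to 1.96%) in Dhx37-/- 1 and 1.58% (156 of 9844; 1.36 to 1.85%) in Dhx37-/- 2. The intervals cover counting error only and overlap among all 4 libraries. The means were 1.47% ± 0.062 (SD, n = 2) and 1.63% ± 0.060 (SD, n = 2), with no overlap between groups (exact two-sided permutation test, p = 0.33, the smallest p possible). With the nuclei of the 4 largest clusters alone the shares were 1.29% and 1.43% in WT against 1.36% and 0.884% in Dhx37-/- libraries, the opposite order of means. No barcode occurred among the gated nuclei of more than 1 library, and 134 barcodes occurred in more than 1 library among all nuclei of this depth. Whether a gated nucleus shared its barcode with a nucleus outside the gate in another library was not counted.

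To ask which genes differed between genotypes in the gated nuclei, UMIs were summed per library and compared with edgeR (quasi-likelihood test, two-sided, Benjamini-Hochberg adjustment). Of 10681 genes tested, 0 passed an adjusted p of 0.05 (0% called), and the lowest adjusted p was 0.393. Unadjusted p was under 0.05 for 663 genes higher in Dhx37-/- (6.21%) and 406 genes lower (3.80%), and DESeq2 called 11 genes. With edgeR, 271 genes were called without the filter on low counts, and leaving out 1 library gave 448 calls without WT 1, 98 without WT 2, 176 without Dhx37-/- 1 and 4 without Dhx37-/- 2. The p-values measure the spread between 2 libraries per genotype, and the labels name no batch.
Dhx37 itself was at 19.4 and 45.3 CPM in WT and at 29.8 and 24 CPM in Dhx37-/- nuclei, with overlapping groups (log2 difference -0.23, SE 0.55, edgeR adjusted p = 0.91). This does not check the genotype, since Cre is directed to Sertoli cells. Cluster 8, with its Sertoli markers, was part of the nuclei tested.

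The 10 genes of the first list chose the nuclei, so their differences are given as a description. All 10 stayed in the fit and its adjustment, as did 7 of the 8 genes of the second list. In each list 1 gene had an unadjusted p under 0.05 and was lower in Dhx37-/-. Pls1 had a log2 difference of -0.75 (SE 0.31) over all gated nuclei and -0.20 in the 4 largest clusters, and Wee2 one of -0.50 (SE 0.43). The 12 leading genes outside the lists had log2 differences of -1.06 to 0.26, and 0 of them had an unadjusted p under 0.05. Of all genes tested, 6.21% were higher and 3.80% lower at that p.
The stage lists gave no calls either. Of 12 spermatogonia genes, 5 passed the filter on low counts. All 5 were higher in Dhx37-/- (median log2 difference 1.12), 1 of them at an unadjusted p under 0.05 (20.0%, beside 6.21% of all genes). Over all genes tested, 5230 were higher and 5451 lower. A gene could pass the filter through the libraries of a single genotype, so the direction of these 5 genes was partly fixed in advance. In the 4 largest clusters 0 of them were tested. Of 14 tested leptotene and zygotene genes, 10 were higher and 4 lower, 1 at that p (7.1%, beside 6.21% of all genes). Their median was 0.20, and -0.15 in the 4 largest clusters. The pachytene, round and elongating spermatid lists had medians of -0.09, 0.02 and 0.26. Of 19 tested genes of late pachytene, diplotene and MI, 0 had an unadjusted p under 0.05, beside 6.21% higher and 3.80% lower of all genes. In this list 9 genes were higher and 10 lower, with a median log2 difference of -0.005, beside -0.016 over all genes tested. Cenpe had a difference of -0.37 (SE 0.33). Of 39 tested genes of G2 and the divisions, 0 had an unadjusted p under 0.05, beside the same shares of all genes, with a median of -0.010. These 39 genes include the list's member of the first list. Of 45 tested synapsis genes, 5 had an unadjusted p under 0.05, all higher in Dhx37-/- (11.1%, beside 6.21% of all genes), among them Sycp1 and Hormad2. The synapsis list had a median of 0.20 over all gated nuclei, with 30 higher and 15 lower, and of -0.13 in the 4 largest clusters.
Of 34 tested piRNA genes, 7 had an unadjusted p under 0.05, all higher (20.6%, beside 6.21% of all genes). Among them was Fkbp6, a chaperone of piRNA loading, at 42.7 and 25.2 CPM in WT and 72.3 and 217 CPM in Dhx37-/- nuclei. The median of the piRNA list was 0.26 over all gated nuclei and -0.02 in the 4 largest clusters.

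Markers of Sertoli cells were at higher levels in the Dhx37-/- libraries, with no gene called. The 12 Sertoli genes summed to 196 and 179 CPM in WT and to 479 and 499 CPM in Dhx37-/- gated nuclei, and Wt1 was at 0 in WT 2. Of 9 tested, all 9 were higher, 6 of them (66.7%, beside 6.21% of all genes) at an unadjusted p under 0.05, and 0 were called. A gene could pass the filter on low counts through the libraries of a single genotype. Genes of low level that were high in Dhx37-/- could thus enter by that, and the direction of the 9 genes was partly fixed in advance. In the 4 largest clusters only 2 of them were tested. Cluster 8, where the list summed to 3894 CPM, had 8 of its 9 nuclei from Dhx37-/- libraries. Defb19 was at 36.9 and 57.8 CPM in WT against 132 and 114 CPM in Dhx37-/- nuclei. The same list summed to 481 and 496 CPM against 1137 and 929 CPM in free RNA, and to 131 and 157 CPM against 288 and 244 CPM in the 4 largest clusters. Thus the direction was shared with RNA outside the nuclei, and what part this had in other differences was not tested.

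The 5 genes of smallest p that were higher in Dhx37-/- nuclei were Hpse2, Zfp820, Gm48678, Lrrc4 and Rims2. Hpse2, a heparanase-related protein that binds heparan sulfate, was at 27.2 and 7.5 CPM in WT and at 172 and 499 CPM in Dhx37-/- nuclei (log2 difference 4.20, SE 0.68, edgeR adjusted p = 0.39). Zfp820 was at 27.2 and 60.4 CPM against 251 and 697 CPM (3.49, SE 0.58, edgeR adjusted p = 0.39). Rims2, a scaffold of synaptic vesicle release, was at 52.4 and 35.2 CPM against 193 and 406 CPM (2.76, SE 0.47, edgeR adjusted p = 0.39). For these 3 genes the groups did not overlap and Dhx37-/- 2 was the highest library. DESeq2 called Hpse2, Zfp820, Rims2 and Lrrc4 but not Gm48678, and of the lower genes named below it called Gm42826.
These UMIs lay mostly in the small clusters. Those clusters were made from the RNA of the same nuclei, so leaving them out lowers their leading genes, such as Zfp820, in any case. Clusters 5 to 8 held 94.9% of the Hpse2, 91.5% of the Zfp820 and 90.0% of the Rims2 UMIs, most of them in cluster 6. In the 4 largest clusters Zfp820 was at 27.5 and 61.7 CPM in WT and at 38.1 and 44.3 CPM in Dhx37-/- nuclei, and Rims2 at 43.5 and 16.8 CPM against 30.5 and 33.2 CPM. There the groups of both genes overlapped. The other 3 genes rested on few UMIs there, with 6 and 3 against 8 and 12 UMIs for Hpse2, 0 and 1 against 2 and 2 UMIs for Gm48678, and 2 and 0 against 4 and 3 UMIs for Lrrc4.

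The 5 genes of smallest p that were lower were Gm42826, Gm34623, 4930474H20Rik, Ppfia2 and Nrxn3. Gm42826, a predicted gene, was at 175 and 340 CPM in WT and at 73.8 and 65.2 CPM in Dhx37-/- nuclei (log2 difference -1.87, SE 0.37, edgeR adjusted p = 0.45). In the 4 largest clusters it was at 199 and 359 CPM against 82.0 and 63.6 CPM, so this difference was of the same size there. It was also of that size in the mirrored-gate nuclei of the same libraries, with 152 and 205 CPM against 52.6 and 53.9 CPM (log2 difference -1.80).
Ppfia2, a liprin that organises presynaptic sites, was at 550 and 415 CPM in WT and at 180 and 172 CPM in Dhx37-/- nuclei (-1.47, SE 0.32, edgeR adjusted p = 0.45). In the 4 largest clusters it was at 632 and 432 CPM against 227 and 379 CPM. Gm34623 and 4930474H20Rik had 65.4% and 71.4% of their UMIs in clusters 5 to 8, and both were leading genes of cluster 7, the doublet calls.

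**Figure D5:**
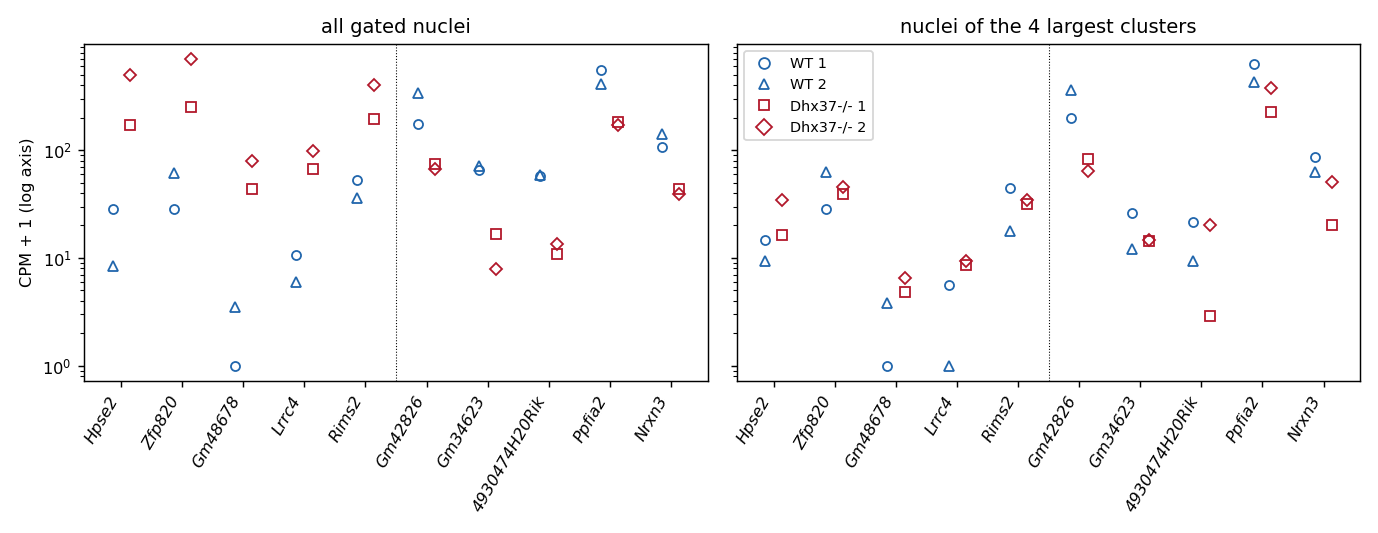
CPM plus 1 (log axis) of the 5 genes of smallest p in each direction, higher in Dhx37-/- left of the dotted line and lower right of it, with 1 point per library, in all gated nuclei (left panel) and in the 4 largest clusters (right panel). Zfp820 goes from 27.2 and 60.4 against 251 and 697 CPM in the left panel to overlapping groups in the right one, whereas Gm42826 stays apart in both.

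Whether a genotype difference was unlike that in the mirrored-gate nuclei of the same 4 libraries was tested as an interaction. The mirrored-gate nuclei number 3374 and share Cadm2 and Spef2 as genes of their gate. The 1308 nuclei with both lists were not part of this test, so it cannot show that a difference is particular to the gated nuclei. Of 19224 genes tested with edgeR, 7 passed an adjusted p of 0.05 (0.0364% called), all with a higher Dhx37-/- to WT ratio in the Wee2 and Pls1 nuclei. They were Rims2 (log2 difference of differences 3.04, SE 0.40, edgeR adjusted p = 0.0069), Tanc2, a synaptic scaffold (2.58, SE 0.35, edgeR adjusted p = 0.0069), Zfp820 (3.11, SE 0.44, edgeR adjusted p = 0.0071), Hpse2 (4.40, SE 0.66, edgeR adjusted p = 0.012), and Mageb18, an X-linked gene of the MAGE family (3.20, SE 0.51, edgeR adjusted p = 0.023). The other two, named because they were called, were Fbxl17, an F-box protein of a ubiquitin ligase (2.04), and Zbtb20, a transcriptional repressor (1.88), each with an edgeR adjusted p of 0.026.
Rims2 in the mirrored-gate nuclei was at 153 and 103 CPM in WT and at 106 and 108 CPM in Dhx37-/- nuclei. Tanc2 was at 91.3 and 80.5 CPM against 138 and 214 CPM in the gated nuclei, and at 196 and 166 CPM against 37.4 and 105 CPM in the mirrored-gate nuclei, so the order of the genotypes was opposite in the 2 kinds of nuclei.
For the 7 genes, clusters 5 to 8 held 70.8% to 95.6% of their UMIs in the gated nuclei, with Tanc2 the lowest and Mageb18 the highest. With the gate applied after thinning each nucleus to 1000 UMIs, all 7 were tested and 0 of them were called. Their differences were then -0.52 for Rims2, 1.51 for Tanc2, 0.22 for Zfp820, 0.17 for Hpse2, 0.50 for Mageb18, 1.07 for Fbxl17 and 0.26 for Zbtb20. The clusters were made from the RNA of the same nuclei, so leaving out clusters 5 to 8 lowers their leading genes in any case. With the 4 largest clusters alone all 7 were also tested and 0 genes were called by edgeR, with 640 at an unadjusted p under 0.05. The difference between kinds was then 0.40 for Rims2, 1.52 for Tanc2, 1.38 for Hpse2, 0.25 for Mageb18 and -0.28 for Zfp820. Among genes with a lower ratio in the gated nuclei, Gm26991, Gm33890, Speer4e, Sec14l3 and Ppfia2 had the smallest p, and none of them was called (edgeR adjusted p = 0.13 to 0.15).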

How the data were processed

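Nuclei of 4 testis libraries were measured by droplet snRNA-seq (10x Genomics 3′ chemistry). The deposited matrices hold counts of UMIs per gene and barcode, made by the authors with Cell Ranger (version 7.2.0 in the file headers) and not filtered to nuclei. The submitters' processing notes name GRCm38 and Seurat 3.1.1. Whether intron reads were counted is not given in the sources used here.

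Barcodes with at least 1000 UMIs and 500 to 5000 genes were kept, and the rule on 10 and 8 genes was applied (Python 3.11.15, scanpy 1.11.5). The members and gene lists were chosen with earlier results of these data known. Scrublet doublet calls were kept in, and leaving them out was an alternative. The X and Y genes were found by Ensembl identifier (52081 of 55357 matched). Clusters (resolution 0.3), the X limit of 0.5% and the subset of 4 largest clusters were chosen after seeing the data.

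UMIs were summed per library and tested with edgeR 4.0.16 (filterByExpr, TMM, quasi-likelihood), checked on simulated data, with DESeq2 1.42.0 as an alternative. Shares and ratios were compared by exact permutation tests of 2 against 2 libraries. Named were the genes of the rule, Dhx37, the 12 leading genes, members of the lists, and the 5 genes of smallest p in each direction. Alternatives were other gates, thinning to 1000 UMIs, filters, scaling, a replicate block and leaving out each library.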

Additional observations from a re-analysis of the deposited data

Results flagged for a closer look

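For 7 genes the genotype difference itself differed between the Wee2 and Pls1 nuclei and the mirrored-gate nuclei of the same libraries, by the edgeR interaction test with adjustment over 19224 genes. The log2 difference of differences was 3.04 for Rims2, 2.58 for Tanc2, 3.11 for Zfp820, 4.40 for Hpse2, 3.20 for Mageb18, 2.04 for Fbxl17 and 1.88 for Zbtb20. Zbtb20 was at 280 and 181 CPM in WT and at 484 and 818 CPM in Dhx37-/- gated nuclei, against 848 and 728 CPM and 605 and 650 CPM in the mirrored-gate nuclei. Mageb18 was at 138 and 2.5 CPM in WT and at 447 and 383 CPM in Dhx37-/- gated nuclei, with 91.4% of its UMIs in the 9 nuclei of cluster 8. The share of UMIs in clusters 5 to 8 was 77.9% for Fbxl17 and 74.2% for Zbtb20. With the gate applied after thinning to 1000 UMIs, 0 of the 7 genes were called (edgeR adjusted p = 0.32 to 0.98), and Rims2 was at -0.52. With clusters 5 to 8 left out, 0 of the genes were called by edgeR. These clusters were made from the RNA of the same nuclei, and Zfp820 led cluster 6 and Mageb18 cluster 8. The loss of calls was thus partly fixed in advance, and the part of these clusters in the differences was not tested.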

How the results depend on the processing

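With 2 libraries per genotype, and 397591 to 873887 UMIs of gated nuclei per library, counts of called genes varied widely. The number of genes called between genotypes was 0, and it was 2 with no limit on the second list, 271 without the filter on low counts, 11 with DESeq2, and 4 to 448 when 1 library was left out (448 without WT 1, 98 without WT 2, 176 without Dhx37-/- 1 and 4 without Dhx37-/- 2). In those fits the lone library is assumed to vary like the other genotype. Other gates, thinning, doublet removal, another scaling and the 4 largest clusters gave 0 calls with edgeR. With the replicate number as a block (replicate block), 0 genes were called. The labels give same-numbered libraries nothing in common but the number, and their deviations from the group means correlated at -0.351. With 2 libraries per genotype, crossed pairs must correlate at the same size with the opposite sign. The value therefore cannot show whether any libraries belong together. With crossed pairing, a replicate block chosen after seeing the data, 646 genes were called.

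Between kinds of nuclei 7 genes were called. The count was 21 with the gate applied after thinning, none of which was among the 7, and 0 with the 4 largest clusters. It was 207 without the filter and 101 without doublets, both with all 7 among them, and 10 to 393 with 1 library left out (302 without WT 1, 32 without WT 2, 393 without Dhx37-/- 1 and 10 without Dhx37-/- 2, with 6 of the 7 among the last and all 7 among the others).

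The difference in the share of gated nuclei (0.156 percentage points) was -0.060 with at least 5 genes and -0.237 with the 4 largest clusters. It was 0.786 with at least 3 genes, 1.392 with no limit on the second list, 0.035 with at least 6 genes and 0.084 from 500 UMIs, and 0.113 to 0.200 with 1 library left out. With the gate after thinning it was 0.2325, with overlapping groups. The difference in the X-linked share (0.236 percentage points) was -0.082 with the gate after thinning and -0.135 with no limit on the second list. It was 0.132, 0.147 and 0.363 with at least 5, 6 and 3 genes, 0.373 with no upper gene limit and 0.101 with the 4 largest clusters, and 0.115 to 0.357 with 1 library left out. The difference in the late to early ratio (-0.219) was 0.026 with at least 5 genes, 0.176 with at least 6, 0.214 after thinning and 0.251 with the 4 largest clusters, and -0.407 with at least 3 and -0.007 with no limit on the second list. It ranged from -0.466 to 0.028 with 1 library left out, the latter without Dhx37-/- 2. The genotype difference of Zfp820 was -0.0048 with the gate after thinning and -0.14 with the 4 largest clusters, and that of Rims2 was -0.42 and -0.01. Between kinds, Rims2 was at -0.52 after thinning and Zfp820 at -0.28 with the 4 largest clusters. The cause of these changes was not tested.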
